A study of Mus musculus with 21 samples.

Results

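The 6 GATA transcription factor genes *Gata1* to *Gata6* and the 2 genes of the FOG cofactors, *Zfpm1* (FOG1) and *Zfpm2* (FOG2), were followed in 21 mouse mammary tumors profiled by bulk RNA sequencing. They are 8 of the 49652 genes in the count files and were taken by gene symbol. The list was drawn up with the level of these genes in the same tumors in view. Their values are therefore given as a description with no p-value. Counts of members past a threshold are given only beside the same count over all genes.

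All 21 tumors came from virgin female *FloxNeoNeuNT*;MMTV-CreNLST mice. In these mice Cre removes a stop cassette in front of an activated *Neu* (NeuNT) cDNA placed in the mouse *Erbb2* locus, so that the oncogene is read from the endogenous *Erbb2* promoter. MMTV-CreNLST is directed to the mammary gland and seems less active there than other Cre lines of this kind. The control cohort held 9 tumors from 9 mice. Of these, 7 also carried a *Gata4*(loxP/+) allele (N-1, N-3, N-4, N-6, N-7, N-8 and N-9) and 2 did not (N-15 and N-17). The other 12 tumors (R-1, R-2, R-6, R-7, R-10, R-12, R-13, R-14, R-15, R-16, R-18 and R-21) carried R26(RhoC/+), a Cre-dependent wild-type *RhoC* cDNA in the *Rosa26* locus. The labels name 7 mice for them and give none for R-18, which was treated as from a mouse of its own, with 4 tumors (R-13, R-14, R-15 and R-16) from mouse P497 and 2 (R-6 and R-7) from mouse N9255. Tumors were taken when a mouse reached a humane endpoint, so age differs between tumors, and the age of each mouse was not used here. The study reports that RhoC mice formed mammary tumors at a much younger age than controls. Age thus differs between the cohorts too, and its part cannot be told apart from that of RhoC. The study pooled the control genotypes and asked how added RhoC changes NeuNT tumors. The *Gata4* allele was brought in because Gata4 is a proposed repressor of *Erbb2*.

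GATA factors are zinc finger proteins that bind the short DNA motif GATA, and FOG proteins bind the GATA factor itself rather than DNA. Gata1 and Gata2 are best known from blood cells, Gata1 in erythroid cells, megakaryocytes and mast cells and Gata2 in stem and progenitor cells, mast cells and endothelium. Gata3 is required for the luminal lineage of the mammary gland and is also a regulator of T helper and innate lymphoid cells. Gata4, Gata5 and Gata6 are known from heart, endoderm and gonad. Zfpm1 works with Gata1 in blood and Zfpm2 with Gata4 in heart and gonad.

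The promoters of *Gata3*, the most abundant member, and of *Erbb2*, whose promoter reads the oncogene, were searched for the 4 letters GATA on both strands, from 250 bases before to 50 bases after the start (RefSeq, build GRCm38.p6). Neither held the motif before the start. The sequences are shown because a GATA factor acting on the *Erbb2* promoter is the question behind the *Gata4* allele. The first and the last line give the 250 bases before each start. The middle line gives the 30 bases around the 1 match of *Gata3*, in capitals, which begins 37 bases past the start. The stretches lie at chr2:9878601-9878850 (minus strand), chr2:9878551-9878580 (minus strand) and chr11:98412234-98412483 (plus strand).
*Gata3*, before the start: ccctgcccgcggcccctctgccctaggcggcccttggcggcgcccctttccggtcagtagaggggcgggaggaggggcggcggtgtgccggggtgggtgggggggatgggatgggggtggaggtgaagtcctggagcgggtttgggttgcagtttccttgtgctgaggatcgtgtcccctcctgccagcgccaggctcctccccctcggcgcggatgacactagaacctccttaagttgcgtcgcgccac
*Gata3*, around the match: ctgcctggcgccgtcttGATAgtttcagaa
*Erbb2*, before the start: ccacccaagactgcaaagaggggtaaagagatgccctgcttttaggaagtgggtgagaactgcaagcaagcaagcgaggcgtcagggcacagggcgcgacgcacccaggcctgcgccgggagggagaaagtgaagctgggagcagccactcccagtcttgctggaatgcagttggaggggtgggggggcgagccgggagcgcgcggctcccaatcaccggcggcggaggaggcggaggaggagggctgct
The GC content was 70.0% before the start of *Gata3* and 66.0% before that of *Erbb2*. Of 32851 mouse promoters of the same 300-base length, 57.9% held GATA on either strand and 11.2% held AGATAA, a longer form that contains it. The search covers these windows only. The start used for *Gata3* lies inside the span of the gene given below, and windows at any other start were not searched.

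The libraries held 47309780 to 100741339 reads counted to genes. *Epcam*, an epithelial adhesion gene, lay between 202 and 960 CPM (reads of a gene scaled to library size with TMM factors) and the luminal keratin *Krt8* between 155 and 1554 CPM in all 21 tumors. *Rhoc* had a median of 50.7 CPM in controls and 88.2 CPM in RhoC tumors, with overlapping ranges. Its log2 fold change was 0.19 (SE 0.34), and 11 of 12 RhoC tumors lay above the control median. The exception was the tumor labelled R-2, at 22.8 CPM the lowest of all 21 (lowest control 25.98, N-7), so its *Rhoc* level goes against its label. Among controls, N-8 held the highest *Rhoc* level of all 21 tumors (172 CPM). N-6 (145 CPM) exceeded every RhoC tumor but R-12 (148 CPM). The *Rhoc* level by itself thus does not check the labels. Without R-2, 39 genes in place of 43 were called in the comparison of cohorts. The log2 fold changes of the members given further on were then -2.47 for *Gata2*, -1.70 for *Gata6*, 0.47 for *Gata3*, 0.38 for *Zfpm2* and 0.16 for *Zfpm1*. In bulk tissue, fewer cells of a type cannot be told apart from less RNA per cell. Counts per gene do not separate the deleted part of *Gata4* from the rest, so they cannot check the *Gata4* allele. Whether reads from the rat-derived NeuNT cDNA are counted to mouse *Erbb2* is not known.

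*Gata3* was the most abundant member in nearly all tumors. In controls it lay at 191 CPM in N-1, 3.23 in N-3, 183 in N-4, 181 in N-6, 198 in N-7, 194 in N-8, 266 in N-9, 71.2 in N-15 and 134 in N-17. In RhoC tumors the lowest value was 43.2 CPM (R-6), the median 186 and the highest 394 (R-18). The medians of the cohorts were alike (183 CPM in controls) while the highest tumor stood 122-fold above the lowest. N-3 held 223 *Gata3* counts, and no other tumor fell below 2156. The standard deviation of the log2 level was 1.97 over the 9 controls, 0.57 without N-3 and 1.02 over the 12 RhoC tumors, so the wider spread of the controls rested on N-3. *Gata3* lies on the minus strand at chr2:9857078-9890034 (ENSMUSG00000015619.10).

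**Figure D1:**
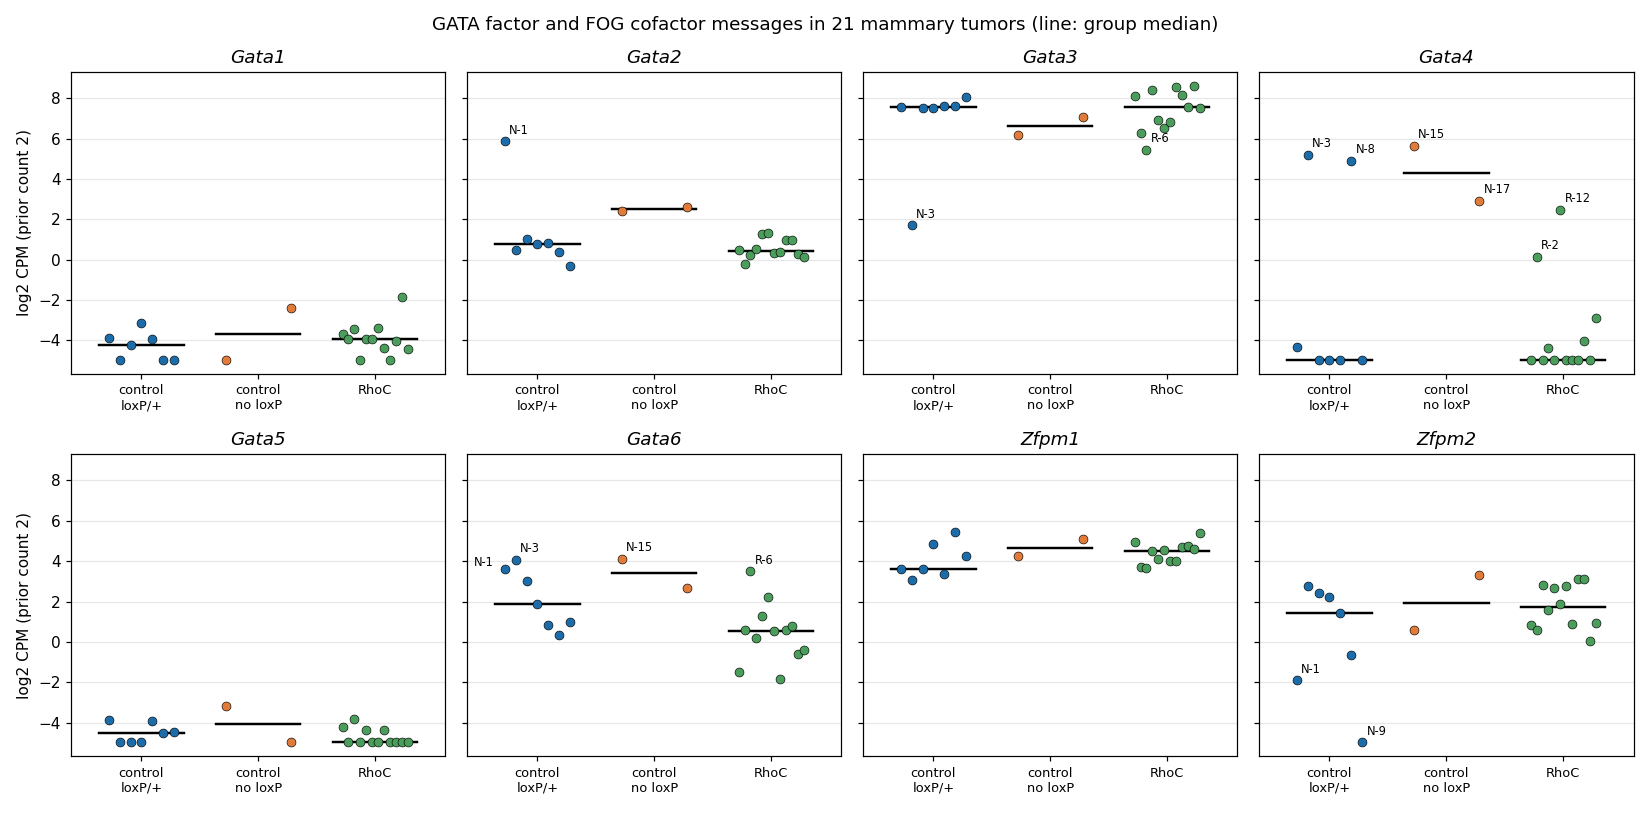
Level of each of the 8 members in every tumor (log2 CPM with a prior count of 2, points are tumors, colours are the 3 genotype groups, lines are group medians). *Gata3* lies between 43.2 and 394 CPM in 20 tumors and at 3.23 CPM in N-3, *Gata2* stands at 58.0 CPM in N-1, and *Gata4* lies between 1.07 and 50.04 CPM in 6 tumors and at 0.103 CPM or less in the other 15.

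Other epithelial genes, named after their values were seen, were mixed in N-3. *Elf5*, an alveolar luminal regulator, lay at 191 CPM, *Epcam* at 548 and *Krt8* at 179, which rank 11, 14 and 18 from the highest of the 21 tumors. *Esr1*, the estrogen receptor, had its lowest level of all tumors there (8.99 CPM), and *Foxa1* had 3 counts. Its summed level over 26 luminal genes (3158 CPM) was the lowest of the controls, whose median was 6115. The lowest sum of all tumors was in R-10 (1926 CPM), where *Gata3* lay at 119 CPM. The tumor with the lowest luminal sum was thus not the one with the lowest *Gata3* level. Over the 21 tumors the log2 level of *Gata3* and the luminal sum had a Pearson r of 0.46, which became 0.33 without N-3 and R-6, the tumors farthest from the median of *Gata3*. It was 0.66 in the 9 controls and 0.61 in the 12 RhoC tumors.

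Tumors of the same mouse also differed. In mouse N9255, R-7 held 7.82-fold more *Gata3* than R-6. In mouse P497, the 4 tumors ran from 112 CPM (R-13) to 381 (R-14), a 3.39-fold range. R-6, R-13 and R-14 are the RhoC tumors the study classed as squamous, and their *Gata3* levels lay at 43.2, 112 and 381 CPM. These 3 also had the highest summed levels of 15 basal genes (22355, 16926 and 8210 CPM, against a median of 2111 over RhoC tumors). Squamous tumors thus held both low and high *Gata3* levels.

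Levels were compared between members on the FPKM values of the authors, which correct for gene length and list *Gata2*, *Gata3*, *Gata4* and *Gata6*. *Gata3* made up the largest share of the summed FPKM of these 4 genes in 20 of 21 tumors. Its median share was 86.4% in controls and 98.3% in RhoC tumors. The exception was N-3, with 62.1% *Gata4*, 30.02% *Gata6* and 5.40% *Gata3*. In N-15 the shares were 48.5% *Gata3*, 34.7% *Gata4* and 12.8% *Gata6*. *Gata2* reached 23.5% in N-1, *Gata4* 13.4% in N-8 and *Gata6* 21.5% in R-6. No other RhoC tumor had less than 87.4% *Gata3*. The summed FPKM ran from 14.4 in R-6 and 14.8 in N-3 to 98.9 in R-18. Both of the lowest tumors had a mixed composition, but the next lowest, R-2 (20.1), held 95.6% *Gata3*. N-1, with a sum of 67.5, held 71.6% *Gata3*. *Gata3* is most of the sum in nearly all tumors, so its share and the sum are not separate measures.

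**Figure D2:**
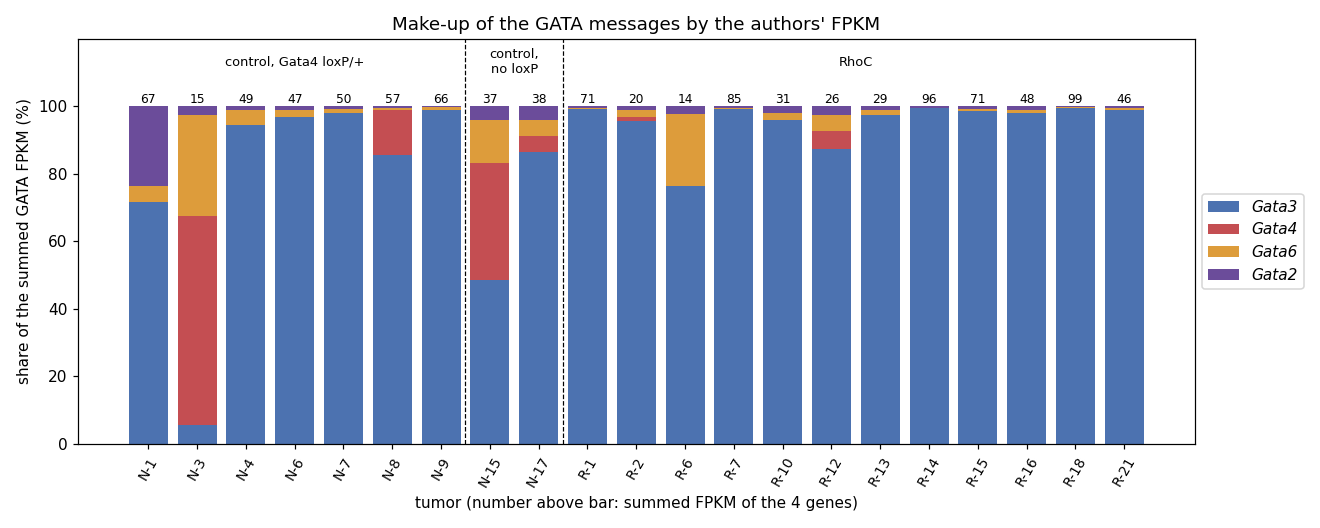
Share of each GATA gene in the summed FPKM of *Gata2*, *Gata3*, *Gata4* and *Gata6* (percent, 1 bar per tumor, grouped by genotype, with the summed FPKM above each bar). *Gata3* fills most of each bar except in N-3, where *Gata4* takes 62.1%, and in N-15, where *Gata3* takes 48.5%.

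*Gata4* was present in some tumors and close to absent in the rest. In the *Gata4*(loxP/+) controls it lay at 36.5 CPM in N-3 and 29.8 in N-8. It had 1 count in N-1 and 0 counts in N-4, N-6, N-7 and N-9. Both controls without the allele expressed it, N-15 at 50.04 CPM and N-17 at 7.56. In RhoC tumors it lay at 5.51 CPM in R-12 and 1.07 in the tumor labelled R-2, whose *Rhoc* level goes against that label. Altogether 6 tumors exceeded 1 CPM, 4 of them controls and 2 RhoC tumors. The other 15 held at most 7 counts, and 11 of them held none. A count of 0 allows up to 3 counts, or at most 0.0630 CPM in these libraries (counting error only).

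Within the *Gata4*(loxP/+) controls, 2 of 7 tumors exceeded 1 CPM, and the level in these was within the range of the 2 controls that lack the allele. The other 5 held 1 count or none. The genes that flank *Gata4* (chr14:63198922-63271692, minus strand, ENSMUSG00000021944.15) did not follow it. *Neil2* had a Pearson r of 0.03 with *Gata4* over the 21 tumors and *Fam167a* one of -0.14.

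*Erbb2* was set beside *Gata4* in each tumor. Among the 6 tumors with over 1 CPM of *Gata4*, *Erbb2* lay at 57.9 CPM in N-15, 263 in the tumor labelled R-2, 710 in R-12, 1456 in N-17, 1708 in N-3 and 2725 in N-8. These tumors thus included both the lowest (N-15) and the highest (N-8) *Erbb2* level of the series. In the same order *Pgap3*, the gene next to *Erbb2*, lay at 18.4, 17.1, 12.95, 500.3, 1154 and 1461 CPM. Its median was 502 CPM in controls and 19.4 in RhoC tumors, and its part in the *Erbb2* levels was not tested. The tumors with 0 *Gata4* counts spanned 256 CPM (R-18) to 2568 (N-6). The medians of *Erbb2* were 1166 CPM in controls and 734 in RhoC tumors, with overlap (log2 fold change -0.73, SE 0.46, adjusted p = 0.370, edgeR quasi-likelihood test).

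*Gata6*, the second endoderm-type factor found here, was higher in controls by median, and every tumor held some. In controls it lay at 11.995 CPM in N-1, 16.5 in N-3, 8.02 in N-4, 3.60 in N-6, 1.78 in N-7, 1.21 in N-8, 1.96 in N-9, 17.3 in N-15 and 6.39 in N-17. In RhoC tumors the lowest value was 0.247 CPM (R-14), the median 1.43 and the highest 11.2 (R-6). The groups overlapped. Only R-6 among the 12 RhoC tumors lay above the control median of 6.39 CPM, and 8 of 9 controls lay above the RhoC median. Within mouse N9255, R-6 held 10.3-fold more *Gata6* than R-7, the reverse of their order for *Gata3*. *Gata6* (ENSMUSG00000005836.10) lies on chromosome 18.

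*Gata2* was low in all tumors but 1. In controls it lay at 58.0 CPM in N-1, 1.38 in N-3, 1.995 in N-4, 1.68 in N-6, 1.73 in N-7, 1.25 in N-8, 0.785 in N-9, 5.36 in N-15 and 5.998 in N-17. In RhoC tumors it ran from 0.820 CPM (the tumor labelled R-2) over a median of 1.32 to 2.44 (R-12). N-1, which the study classed as a spindle cell tumor, stood 9.67-fold above the next tumor, N-17. The controls without the *Gata4* allele came next. *Gata2* lies at chr6:88193891-88207032 (plus strand, ENSMUSG00000015053.14).

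*Gata1* and *Gata5* were at the limit of detection. *Gata1* (chrX:7959260-7978071, ENSMUSG00000031162.14) had 0 counts in 6 tumors and 12 at most (R-18). *Gata5* (chr2:180325133-180334699, ENSMUSG00000015627.5) had 0 counts in 12 tumors and 4 at most (N-15). Their ranges overlapped between cohorts and no order of levels can be read from them.

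The FOG genes were present with *Zfpm1* in the lead. *Zfpm1* (chr8:122282141-122337251, ENSMUSG00000049577.15) ran from 8.41 CPM (N-3) over a median of 18.8 to 42.8 (N-8) in controls, and from 12.4 (R-6) over 22.8 to 41.5 (R-21) in RhoC tumors. It varied least of the members, with 5.09-fold between the highest and the lowest tumor. *Zfpm2* (chr15:40655035-41104592, ENSMUSG00000022306.9) ran from 0 counts (N-9) over a median of 2.67 CPM to 9.74 (N-17) in controls, and from 0.997 (R-18) over 3.31 to 8.63 (R-15) in RhoC tumors. On the FPKM scale *Zfpm1* made up 68.9% (N-3) to 100% (N-9) of the 2 FOG genes, so it was the larger in 21 of 21 tumors.

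N-3 stood at an end of the order for several members. Of the 21 tumors it had the lowest *Gata3* and *Zfpm1* levels and the second highest *Gata4* and *Gata6* levels. N-15 had the highest *Gata4* and *Gata6* levels, and R-18 the highest *Gata3* level.

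The comparison of cohorts asked what RhoC changes in NeuNT tumors. The cohorts also differ in age and in the *Gata4*(loxP/+) allele, which only controls carried. The part of each cannot be told apart from that of RhoC in this comparison. In edgeR's quasi-likelihood fit over 19315 genes, 43 genes (0.223%) had an adjusted p under 0.05, 18 higher and 25 lower in RhoC tumors. Of the members, 5 passed the filter on low counts and 0 of these 5 were among them, while 2 had an unadjusted p under 0.05, as did 20.5% of all tested genes. DESeq2 called 0 of the 5 and 6.24% of all tested genes. These counts are a description, since the list was chosen with these levels in view. *Gata1*, *Gata4* and *Gata5* did not pass the filter. The fit takes tumors of the same mouse as separate samples, and with counts summed per mouse 3 genes were called in place of 43.

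The fitted log2 fold changes (RhoC over control) were -2.53 (SE 0.65) for *Gata2*, -1.75 (SE 0.62) for *Gata6*, 0.39 (SE 0.47) for *Gata3*, 0.30 (SE 0.69) for *Zfpm2* and 0.11 (SE 0.28) for *Zfpm1*. The value of *Gata2* depended on N-1. Without it the log2 fold change was -0.74 (SE 0.35). With DESeq2 on all tumors it was -0.68, but its default settings replace outlying counts in larger groups. The DESeq2 value is thus not a separate check on N-1, and which counts it replaced was not recorded. The value of *Gata6* stayed between -2.38 (without R-6) and -1.44 (without the tumors of mouse P497) over 28 alternatives. That of *Gata3* stayed between 0.23 and 0.61. Those of *Zfpm1* (-0.01 to 0.31) and *Zfpm2* (-0.11 to 1.35) crossed 0.

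**Figure D3:**
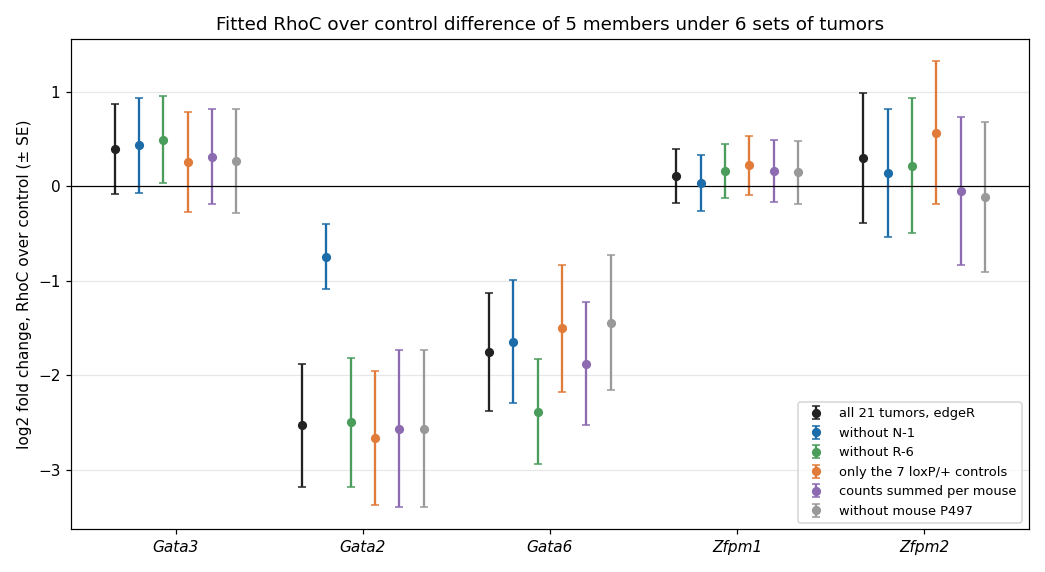
Fitted log2 fold changes, RhoC over control, of the 5 members that passed the filter (points with 1 SE) in the fit to all tumors and in 5 alternatives. *Gata6* lies below 0 in each of these fits, *Gata3* and *Zfpm1* lie near 0, and *Gata2* moves from -2.53 to -0.74 when N-1 is left out.

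The second comparison set the 7 *Gata4*(loxP/+) controls against the 2 controls without the allele. The fit over 23232 genes called 70 genes (0.301%), 0 higher and 70 lower in the *Gata4*(loxP/+) tumors. With 2 tumors in 1 group, a single tumor weighs heavily. Without N-15 131 genes were called, without N-17 116 and without N-9 22, and a fit to the 9 controls alone called 2. Where N-15 or N-17 was left out, the lone tumor of its group was assumed to vary like the other groups. The sum of 12 skeletal muscle genes was 6992 CPM in N-17 and 3.42 in N-15, and that of 10 adipocyte genes was 927 and 82.9 CPM. In the *Gata4*(loxP/+) controls these sums ran from 1.56 to 614 and from 45.8 to 147 CPM. The part of this tissue in the result was not tested.

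Of the members, 7 passed this filter and 0 were called by edgeR, none of them with an unadjusted p under 0.05, which 9.38% of all tested genes had. DESeq2 called 1 (*Gata2*), with a log2 fold change of -1.93 where edgeR gave 0.75, and 1.85% of all tested genes. Its default replacement of outlying counts applies here too. As above, these counts are a description. The fitted log2 fold change of *Gata4* was -1.63 (SE 2.64), and it ran from -2.55 without N-3 to 0.34 without N-15. For *Gata2* it was 0.75 (SE 1.23) and turned to -1.96 without N-1. For *Gata6* it was -0.90 (SE 1.07), and 0.02 without N-15. For *Gata3* it was 0.76 (SE 0.91), between 0.39 and 1.26 over the alternatives. For *Zfpm1* (-0.45, SE 0.51) and *Zfpm2* (-0.94, SE 1.19) it changed sign without N-17, to 0.01 and 0.98. For *Gata1* no fold is given, since N-15 held 0 counts and no control over 11.

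Genes linked to GATA and FOG function were then followed in lists, fixed with earlier results of these data known. In RhoC against control tumors, 1 of 29 tested genes for complex partners was called. This was *Med1*, a Mediator subunit that binds GATA factors, which fell by 3.47 on the log2 scale in edgeR's fit (SE 0.67, adjusted p = 0.0311). It lay at 6397 CPM in N-8, 4332 in N-9 and 3042 in N-17, at 129 to 268 in the other 6 controls and at 116 to 166 in RhoC tumors. *Med1* (chr11:98152154-98193293, minus strand) lies 219 kb from *Erbb2*, and the *Erbb2* neighbor *Pgap3* (-5.49, SE 0.53, adjusted p = 1.15e-05) also fell. The call was lost in 11 of 28 alternatives. Over the 28 the log2 fold change ran from -3.62 (without N-15) to -1.75 (voom). Leaving out N-8 gave an adjusted p of 0.0621, N-9 0.0608, R-6 0.0600, R-13 0.0552, R-14 0.0565, R-15 0.0539, R-16 0.0522 and R-21 0.0530. Without the tumors of mouse P497 it was 0.222, with counts summed per mouse 0.182 and in voom with mouse as a random effect 0.301.

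Of the 29 complex partners, 6 had an unadjusted p under 0.05, close to the 20.5% of all tested genes, and DESeq2 called 2, beside 6.24% of all tested genes. Of the 6, *Med1*, *Mta3*, *Fli1* (-0.91) and *Ldb2* (-0.86) were negative and *Mta2* (0.38) and *Ctbp1* (0.26) positive, of which all but *Med1* and *Mta3* are named after their values were seen. The median log2 fold change of the 29 genes was 0.07, with 17 positive and 12 negative, beside a median of -0.01 over all tested genes, of which 49.6% were positive. Without *Med1* the summed level ran from 2440 to 3658 CPM in controls and from 2977 to 3611 in RhoC tumors. In the list of 8 tested genes with another GATA-type zinc finger, 0 were called by edgeR and 3 had an unadjusted p under 0.05, and DESeq2 called 1. *Mta3*, a subunit of the NuRD corepressor, had the smallest p (log2 fold change -0.52, SE 0.13, adjusted p = 0.0714) and *Rere* the next (-0.47, SE 0.16, adjusted p = 0.122). *Mta3* was called in 3 of 28 alternatives and *Rere* in 0. *Mta3* lay at 49.2 to 99.3 CPM in controls and 38.3 to 68.7 in RhoC tumors. *Trps1*, a GATA-type repressor known from breast epithelium and named here after its values were seen, lay at 219 CPM in R-6 and 276 in R-13, and at 780 or more in each of the other tumors. R-6 was also the RhoC tumor with the lowest *Gata3* level. N-3, with the lowest *Gata3* level of all tumors, held 1115 CPM of *Trps1*, so the 2 genes were not low together there.

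The luminal list, the genes most tied to Gata3 in the gland, was split between the directions. Of 25 tested genes, 11 were positive and 14 negative, with a median of -0.04. By edgeR 0 were called and 5 had an unadjusted p under 0.05 (20.5% of all tested genes did), and DESeq2 called 1 (6.24% of all tested genes). *Foxa1*, a pioneer factor that works with Gata3 at estrogen receptor sites, had the smallest p (4.03 on the log2 scale, SE 1.36, adjusted p = 0.126) and *Esr1* the next (1.12, SE 0.41, adjusted p = 0.143). *Foxa1* ran from 0.0166 to 8.76 CPM in controls and from 0 to 168 in RhoC tumors, so the groups overlapped. Its value moved from 2.81 without the tumors of mouse P497 to 6.14 against the 7 *Gata4*(loxP/+) controls, and it was called in 2 of 28 alternatives.

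Of 15 basal genes, 12 were positive, with a median of 0.62, beside 49.6% of all tested genes. By edgeR 0 were called and 1 had an unadjusted p under 0.05, *Itgb4*, a hemidesmosome integrin (1.96, SE 0.48, adjusted p = 0.0606), and DESeq2 called 1. Over all tested genes these shares were 20.5% and 6.24%. *Krt14*, a basal keratin, came next (3.05, SE 1.69, adjusted p = 0.310), and voom gave it the opposite sign (-0.78). The sums of the basal list were led by R-6 and R-13, as given above.

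**Figure D4:**
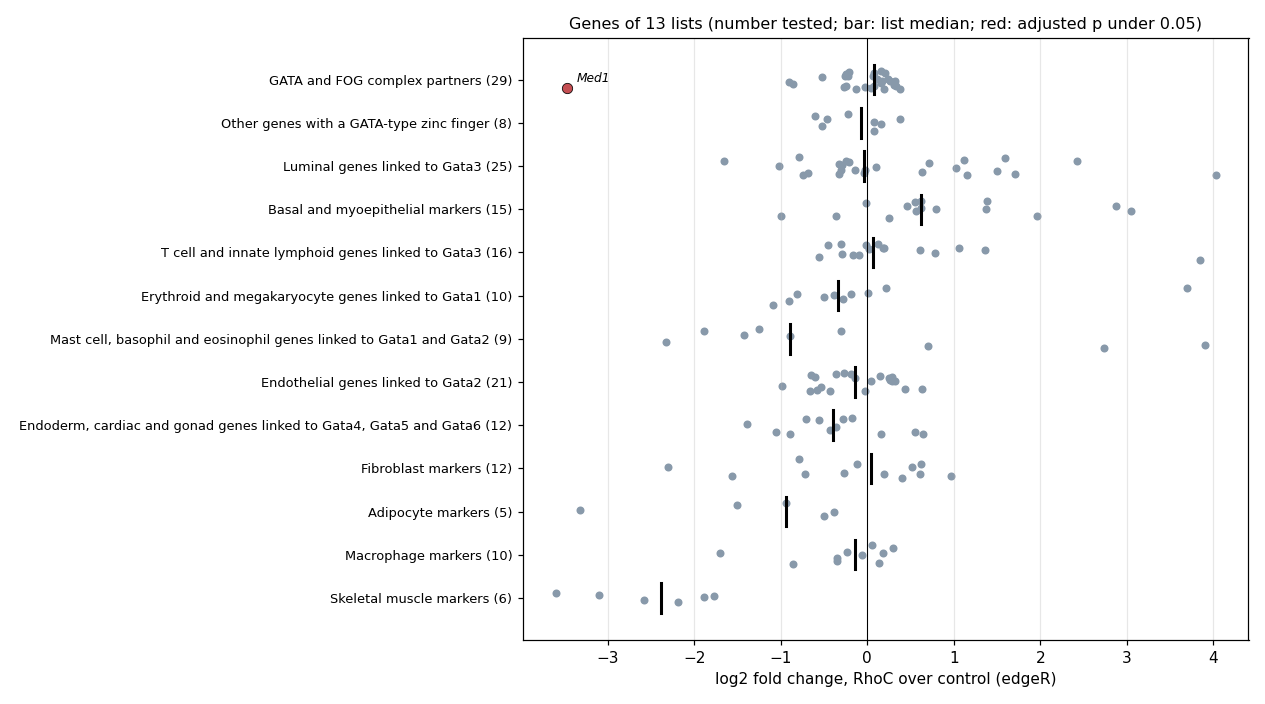
Log2 fold change (RhoC over control) of each tested gene of the 13 lists (points are genes, vertical bars list medians, called genes in red). *Med1* at -3.47 is the only called gene. The medians lie between -2.39 (6 skeletal muscle genes) and 0.62 (15 basal genes).

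The blood and vessel lists were searched because Gata1, Gata2 and Gata3 also mark such cells. By edgeR 0 genes were called in the T cell, erythroid, mast cell and endothelial lists. The counts with an unadjusted p under 0.05 were 3 of 16 T cell genes, 1 of 10 erythroid and megakaryocyte genes, 1 of 9 mast cell, basophil and eosinophil genes and 1 of 21 endothelial genes, none above the 20.5% of all tested genes. DESeq2 called 2 of the mast cell list and 0 of the other 3, beside 6.24% of all tested genes. The T cell genes split into 9 positive and 7 negative (median 0.07), the erythroid and megakaryocyte genes into 3 and 7 (-0.34). The mast cell, basophil and eosinophil genes split into 3 positive and 6 negative (-0.89), the endothelial genes into 9 and 12 (-0.15). The smallest p in each belonged to *Ccr4* (3.85, SE 1.20, adjusted p = 0.105), *Ppbp* (3.70, SE 1.21, adjusted p = 0.117), *Mcpt8* (3.91, SE 1.18, adjusted p = 0.0973) and *Flt1* (-0.65, SE 0.28, adjusted p = 0.201). The second smallest p of the T cell, mast cell and endothelial lists belonged to *Cd4* (1.06), *Tpsab1* (2.74) and *Erg* (-0.66), all as log2 fold changes. The value of *Ccr4*, a chemokine receptor, rested on R-6, which held 33.2 CPM while no other tumor exceeded 2.90. Without R-6 its log2 fold change was 1.28, and voom gave 0.91. *Ppbp*, a platelet chemokine, lay at 344 CPM in R-6, 128 in R-14 and 66.3 in R-13, and at 6.98 or less elsewhere. Without R-6 its value was 2.44, and voom gave 0.12. *Tpsab1*, a mast cell tryptase, lay at 15.04 CPM in R-18 and at 2.33 or less elsewhere, and its value was 0.70 without R-18. *Mcpt8*, a basophil protease, lay at 0 to 0.399 CPM in controls and at 0 to 6.20 in RhoC tumors.

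In the list of endoderm, heart and gonad genes linked to Gata4, Gata5 and Gata6, 12 of 28 passed the filter. By edgeR 0 were called, 1 had an unadjusted p under 0.05 and DESeq2 called 0. Of these 12, 9 were negative (median -0.39). The smallest p belonged to *Mef2c* (-1.06, SE 0.41, adjusted p = 0.167) and the next to *Col4a1* (0.64, SE 0.33, adjusted p = 0.277). The lists of other cell types in the tissue had 0 calls by edgeR. The counts with an unadjusted p under 0.05 were 2 of 12 fibroblast genes (*Dcn* -1.57, *Dpt* -2.31), 2 of 5 adipocyte genes (*Plin4* -3.32, *Pparg* -1.51), 0 of 10 macrophage genes (*Cd163* -1.71, *Mrc1* -0.86) and 0 of 6 muscle genes (*Tnni2* -2.58, *Actn3* -3.10). DESeq2 called 5 of the muscle list and 0 of the other 3. Over all tested genes 20.5% had such a p and DESeq2 called 6.24%. The 12 fibroblast genes split into 6 positive and 6 negative (median 0.04). Their sums had medians of 3729 CPM in controls and 3833 in RhoC tumors. Of the macrophage genes 4 were positive and 6 negative (median -0.15). All 5 adipocyte genes (median -0.94) and all 6 muscle genes (median -2.39) were negative. Without N-17 *Plin4* (1.36) and *Actn3* (0.15) changed sign.

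In the comparison by *Gata4* allele, 1 gene of the 13 lists was called by edgeR. DESeq2 called 9 genes of the muscle list, 5 of the adipocyte list, 2 of the Gata4, Gata5 and Gata6 list, 1 each of the erythroid, mast cell and endothelial lists and 0 of the other 7. *Egfl7*, an endothelial secreted factor, fell by 1.91 on the log2 scale (SE 0.38, adjusted p = 0.0333, edgeR). It lay at 44.8 CPM in N-17 and 11.7 in N-15, and at 4.08 to 12.2 in the *Gata4*(loxP/+) controls, so N-15 lay within their range. Of the 21 endothelial genes, 2 were positive, 8 had an unadjusted p under 0.05 and the median was -0.71. Over all tested genes 9.38% had such a p, DESeq2 called 1.85%, and 11576 of 23232 were positive. The sum of the 21 endothelial genes was 1512 CPM in N-17 and 467 in N-15. It ran from 340 to 839 CPM in the *Gata4*(loxP/+) controls, so N-15 lay within their range here too. The call of *Egfl7* was lost in 7 of 13 alternatives. It went to an adjusted p of 0.726 without N-17, to 0.0742 without N-1, 0.0705 without N-4, 0.0575 without N-6, 0.0526 without N-7 and 0.0677 without N-9, and to 0.390 in the fit to the 9 controls. In 21 tested genes of the Gata4, Gata5 and Gata6 list, 4 were positive (median -0.98), 0 were called by edgeR, and 4 had an unadjusted p under 0.05. *Lhx9*, a gonad gene of this list named after its values were seen, lay at 28.2 CPM in N-17. It lay at 0.0391 CPM in N-15, the other control without the allele, and at 1.49 or less in all tumors but N-17. All 10 adipocyte genes (median -6.71) and all 12 muscle genes (median -5.11) were negative, with 8 and 1 at an unadjusted p under 0.05, beside the sums of N-17 given above.

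Members were last compared with each other and with all tested genes over the 21 tumors, as Pearson correlations of log2 CPM. The tumors share sequencing and some share a mouse, so these are descriptions. *Gata3* and *Gata6* ran in opposite directions (r = -0.64, Spearman rho -0.69). The r was -0.58 in the 9 controls and -0.82 in the 12 RhoC tumors, and -0.60 without N-3 and R-6. *Gata2* and *Gata6* had an r of 0.51, and *Gata3* and *Gata4* one of -0.57. No other pair among the 6 members compared exceeded 0.50 in size.

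*Zfpm2* ran with fibroblast genes. Its r with the summed fibroblast genes was 0.91 (rho 0.81). It was 0.98 in controls, 0.71 in RhoC tumors and 0.76 without N-9 and N-1. *Mmp2*, a matrix protease (r = 0.92), *Col1a2*, a collagen chain (0.92), *Adamts16* (0.92) and *Serpinf1* (0.91) were among the 5 genes most like it. N-9, where *Zfpm2* had 0 counts, also had the lowest fibroblast sum (382 CPM), and N-17, with the most *Zfpm2*, the highest of the controls (7972.3).

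**Figure D5:**
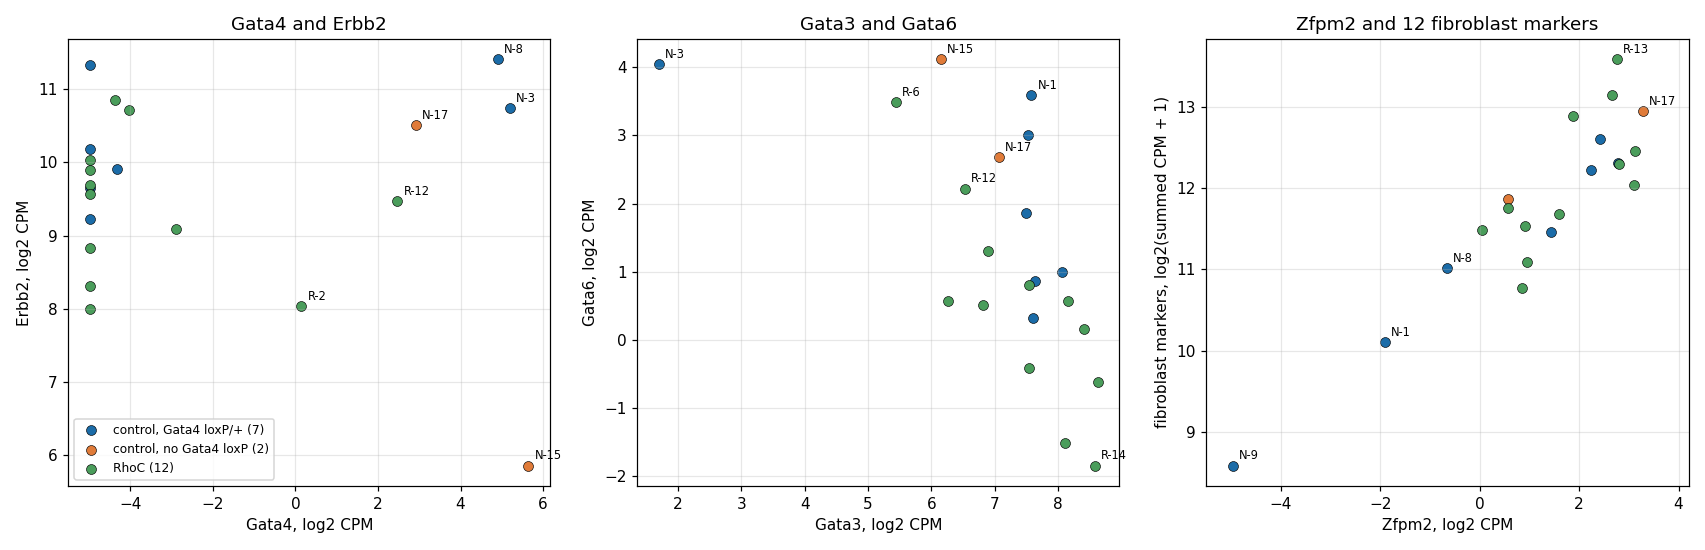
Levels of *Gata4* and *Erbb2*, of *Gata3* and *Gata6* and of *Zfpm2* and the summed fibroblast genes in the 21 tumors (log2 CPM, points are tumors, colours are the groups). The tumors with *Gata4* include both the lowest (N-15) and the highest (N-8) *Erbb2* level, *Gata6* falls as *Gata3* rises (r = -0.64), and *Zfpm2* rises with the summed fibroblast genes (r = 0.91).

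The genes most like the other members by this measure were *Smpd1* (r = 0.86), *Ldhd* (0.84), *Shf* (0.84), *Cd81* (0.83) and *Ppp2r2c* (0.83) for *Zfpm1*. For *Gata6* they were *Gxylt1* (0.76), *Filip1l* (0.76), *Gm44414* (0.75), *Tmem65* (0.73) and *Scaf11* (0.73). For *Gata2* they were *Tshz2* (0.79), *Tmem178* (0.71), *Lrrc66* (0.69), *Timp3* (0.69) and *Foxf2* (0.68), and the r of *Tshz2* was 0.43 without N-1 and N-17. For *Gata3* they were *Gm38910* (0.84), *Gm45894* (0.83), *Sh3d21* (0.83), *Igsf5* (0.82) and *9230102O04Rik* (0.82), and the r of *Gm38910* was 0.56 without N-3 and R-6. For *Gata4*, which is near 0 in most tumors, *Ebf2* came first (0.82), then *Ly6c2* (0.77), *Adamts9* (0.77), *Tmem243* (0.76) and *Adgrg7* (0.76).

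Some of these values share a locus. *9230102O04Rik* overlaps *Gata3* on the same strand and *4930412O13Rik* (r = 0.79) on the opposite strand. *Gm49526*, first in likeness to *Zfpm2* (r = 0.93), *Gm49525* and *Gm49524* overlap *Zfpm2* on its strand. *1010001N08Rik*, opposite *Gata6*, had at most 15 counts and an r of 0.76 with it. The counting of the authors dropped reads that fell in several genes, so reads shared by genes on the same strand are missing from both. Its strand setting is not given in the sources used here, so for genes on opposite strands the origin of reads cannot be told apart. The nearest tested genes on either side had an r of 0.05 (*Taf3*) and 0.11 (*Gm13217*) with *Gata3*, 0.30 (*Mib1*) and 0.48 (*Rbbp8*) with *Gata6*, -0.50 (*Rpn1*) and -0.20 (*Eefsec*) with *Gata2*, -0.12 (*Banp*) and -0.16 (*Zc3h18*) with *Zfpm1* and 0.09 (*Oxr1*) and 0.32 (*AU022793*) with *Zfpm2*.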

How the data were processed

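RNA from 21 mouse mammary tumors was sequenced by the study on an Illumina NovaSeq instrument (stranded total RNA libraries). Per the submitters' processing notes, FastQC 0.11.5, Trim Galore 0.5.0, STAR 2.6.0c and HTSeq 0.6.1p2 were used with build GRCm38.p6. The strand setting and the annotation release are not given in the sources used here. The authors deposited raw read counts per gene for each tumor, without normalization, and only uniquely mapping reads were counted. The authors also deposited a table with FPKM values per tumor, used here only to compare levels between members. Its columns of fold changes and p-values from the authors' own comparison were not used.

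Counts were fitted with edgeR 4.0.16 in R 4.3.3 (TMM scaling, filterByExpr, quasi-likelihood test, Benjamini-Hochberg adjustment over all tested genes, threshold 0.05), tested first on simulated data. CPM are TMM-scaled, and log2 CPM used a prior count of 2. Samples were grouped by the genotype in the labels. The cohort fit used 12 RhoC and 9 control tumors. The fit by *Gata4* allele used all 21 tumors in 3 groups. Alternatives were DESeq2 1.42.0, library size scaling, no filter, counts summed per mouse, voom with mouse as a random effect (limma 3.58.1), subsets of tumors and each tumor left out. Tumors of the same mouse count as separate samples in the fits to all tumors, so p-values measure the spread between tumors.

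The members and the 13 gene lists were chosen with earlier results of these data known. Named genes are all members, *Rhoc* and *Erbb2*, every called gene of a list, the 2 genes with the smallest p per list in RhoC against control (1 of them is not reported here), the 5 genes most correlated with each tested member and overlapping or nearest genes. *Epcam* and *Krt8* check the tissue. Others are marked as named after their values were seen. Positions are from GENCODE M21 (8 of 8 members matched by identifier), promoters from RefSeq on GRCm38.p6.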

Additional observations from a re-analysis of the deposited data

Results flagged for a closer look

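The list was chosen with these levels in view, so the values that follow are a description. The highest and lowest tumors of the control groups stood apart in 4 of 32 cases, by Dixon's ratio in log2 CPM (the gap to the nearest tumor over the whole range of the group) set beside its 95% critical value. On the lowest side *Gata1*, *Gata4* and *Gata5* could not stand apart, since several tumors tied at 0 counts. In data not chosen by level, chance passes about 1 in 20 groups, but that rate does not apply to these cases. The 7 *Gata4*(loxP/+) controls are part of the 9 controls, so the 4 cases are 2 tumors, each counted in both groups. *Gata2* in N-1 had a ratio of 0.531 among the 9 controls and 0.787 among the 7 *Gata4*(loxP/+) controls, with 58.0 CPM against 5.998 in the next control. *Gata3* in N-3 had a ratio of 0.701 among the 9 controls and 0.912 among the 7 *Gata4*(loxP/+) controls, with 3.23 CPM against 71.2 in the next lowest control.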

How the results depend on the processing

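No paired analysis was possible because the numbers in the labels only name tumors, and no mouse gave tumors to both of the groups compared. In RhoC against control tumors, the fit to all tumors called 43 genes (18 higher, 25 lower). DESeq2 called 1206 (706 higher, 500 lower), library size scaling 27 (7 higher, 20 lower), counts summed per mouse 3, voom with a mouse term 3, the fit against the 7 *Gata4*(loxP/+) controls 438 (202 higher, 236 lower) and the fit without mouse P497 3. Leaving out 1 tumor gave 14 (N-9) to 346 (N-15), with 19 without N-1, 65 without N-6, 20 without N-7, 22 without N-8, R-6 or R-13, 94 without R-10, 108 without R-12, 20 without R-14, 26 without R-15, 23 without R-16, 80 without R-18 and 27 without R-21. In the comparison by *Gata4* allele, 70 genes were called, with 430 by DESeq2 (91 higher, 339 lower) and 2 in the fit to the 9 controls. Leaving out 1 tumor gave 22 (N-9) to 131 (N-15), with 116 without N-17. The cause was not tested, beyond the fewer tumors of the smaller fits. Counts called within the lists moved in 42 of the alternative values and stayed in 491, and member fold changes moved by more than the SD between tumors in 8 of 230 and changed sign in 10. *Plin4* turned to 0.15 with DESeq2 and to 1.18 against the *Gata4*(loxP/+) controls, and ran from -4.53 (without R-10) to 1.36 (without N-17) with 1 tumor left out. *Actn3* ran from -4.13 (without R-10) to 0.15 (without N-17), and *Krt14* turned to -0.78 with voom. *Gata1* and *Gata5* are limited by depth, since 3 counts equal 0.0340 to 0.0630 CPM.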
